A study of Mus musculus with 21 samples.

Results

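The neuronal pentraxins, BDNF with its receptor and a set of late activity genes were examined as a group of 9 genes (Nptx1, Nptx2, Nptxr, Bdnf, Ntrk2, Vgf, Scg2, Inhba and Pcsk1) among the 21872 gene symbols of both count tables. They were chosen by symbol because Nptx1 was higher in TETA at 7 weeks, so the values of that contrast chose the group and are described below without a test. RNA came from mouse brain after water or after trientine (TETA), a copper-chelating drug whose recipients the labels call copper-deficient, in embryos on day 18.5 (E18.5) and in mice aged 7 weeks. The groups were 6 water-treated controls and 6 TETA libraries at E18.5, and 5 water-treated controls and 4 TETA libraries at 7 weeks. The protocol names prefrontal cortex of male mice for the 7-week age, while brain region and sex at E18.5, and strain, dose, route and length of treatment at both ages, are not given in the sources used here. No genetic change is named in any group.

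Neuronal pentraxins are secreted or membrane-bound proteins that assemble outside the cell at synapses, where they cluster AMPA-type glutamate receptors. Nptx1 and Nptx2 (also called Narp) are secreted, and Nptxr is anchored in the membrane. BDNF is a neurotrophin that signals through the TrkB receptor, which Ntrk2 encodes. Vgf and Scg2 encode granins, which are stored in dense core granules and cut into peptides, Pcsk1 encodes a convertase that cuts such precursors, and Inhba encodes the subunit of activin A. Neuronal firing is known to raise transcription of Bdnf, Nptx2, Vgf, Scg2, Inhba and Pcsk1 after the fast early genes such as Fos and Egr1.

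All 9 genes are protein-coding in GENCODE M21 (GRCm38, the build of the mm10 name in the submitters' processing notes). Nptx1 lies at chr11:119538719-119547753, Nptx2 at chr5:144545902-144557478 and Nptxr at chr15:79786351-79804766. Bdnf lies at chr2:109674700-109727007 and Ntrk2 at chr13:58806569-59133970. Vgf lies at chr5:137026392-137033351, Scg2 at chr1:79434669-79440120, Inhba at chr13:16011851-16031621 and Pcsk1 at chr13:75089826-75134861. The joined exons measured 2515 bp for Scg2 and 19292 bp for Ntrk2, the shortest and the longest of the 9. Counts are per gene, so full-length TrkB and the truncated receptor forms that Ntrk2 also encodes were not separated. Exons of Nptxr overlap those of Npcd on the same strand over 890 bp, but Npcd had at most 11 counts in any library. Bdnf shares 896 bp of exon with the antisense gene Gm45346, and whether the counting used strand is not given in the sources used here.

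Promoter sequence was available for 5 of the 9 genes (Bdnf, Ntrk2, Scg2, Inhba and Pcsk1), as 11 RefSeq windows of 250 bases before a transcript start, 7 of them for Bdnf (GRCm38.p6). They are shown because the cAMP response element (CRE), which the activity-dependent factor CREB binds, is a known element of activity-regulated genes, early ones included. The full palindrome TGACGTCA was found in the windows of Scg2 and Pcsk1, and in 1.55% of all 32851 windows of that length. Its core, TGACG or CGTCA on either strand, which the full CRE contains, was found in 3 of the 11 windows and in 17.8% of all windows. An AP-1 motif, TGANTCA, was found in 1 Bdnf window and in 6.75% of all windows, and an EGR motif, GCGNGGGCG, in 0 of the 11 windows and in 4.7% of all. A match describes letters and does not show binding, and absence from these windows says nothing about a factor. In these stretches, 5′ to 3′ on the gene's strand, capitals mark the CRE and its core.
Scg2, chr1:79440076-79440105, minus strand: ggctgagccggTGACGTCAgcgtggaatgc
Pcsk1, chr13:75089737-75089825, plus strand: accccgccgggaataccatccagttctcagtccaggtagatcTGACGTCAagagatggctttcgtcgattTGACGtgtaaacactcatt
Bdnf, transcript start 3, chr2:109692316-109692435, plus strand: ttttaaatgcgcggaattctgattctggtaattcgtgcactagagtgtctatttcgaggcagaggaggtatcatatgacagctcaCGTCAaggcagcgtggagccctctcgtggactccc
The CRE of Scg2 spans 68 to 61 bases before the RefSeq start and lies inside a GENCODE exon of the gene. The CRE of Pcsk1 spans 78 to 71 bases before its start, with a further core at 50 to 46 bases. In the Bdnf stretch the core lies 35 to 31 bases before the start.

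Library totals at E18.5 were 14678265 to 24308555 counts, and those at 7 weeks 17838051 to 24035857. Levels are CPM, counts divided by library size with TMM factors over all 21 libraries. At E18.5, 1940 rows at 0 in control replicate 1-1 were multiples of 11 in every other library and were divided by 11. None of the 9 genes was among these rows. All 9 genes passed the filter on low counts at both ages. Counts were lowest for Bdnf at E18.5 (55 to 111 per library), where the counting error of the lowest library was 13.5%, and highest for Nptxr at 7 weeks (19452 to 29152 in control). The labels do not say that libraries of a group came from separate animals, so p-values measure the spread between these libraries. E18.5 libraries that share the first part of their number, such as 1-1 and 1-2, were fitted as separate libraries. The main fit took no account of a possible relation between them, which would make its SEs too small.

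In control brain, 8 of the 9 genes rose from E18.5 to 7 weeks and 1, Inhba, fell, all below 0.05 after Benjamini-Hochberg (BH) adjustment of edgeR quasi-likelihood p-values over 14375 genes. Past the same threshold, 89.5% of all genes tested differed between ages, made up of 44.0% higher and 45.5% lower. By an unadjusted p under 0.05 the share was 89.8%. A gene's call in this contrast is therefore close to the background, and the sizes carry the description. The median log2 fold change of the 9 genes was 2.83, and that of all genes tested was -0.02. Brain region and sex at E18.5 are not given, so age cannot be told apart from region, sex or count table. Library totals without TMM factors moved the median of all genes to -0.18.

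Among the pentraxins, Nptx1 had the largest age difference of the 9 genes. It was at 21.6 to 25.1 CPM (median 24.3) in the 6 control libraries at E18.5 and at 466, 459, 484, 472 and 485 CPM in the 5 at 7 weeks. Every 7-week library lay far above every embryonic one, and the log2 fold change was 4.32 (SE 0.043; edgeR quasi-likelihood, adjusted p 1.52e-28). Nptxr, the membrane-anchored member, had control means of 173 ± 7.00 CPM at E18.5 and 1228 ± 82.8 CPM at 7 weeks (SD, n = 6 and 5; log2 fold change 2.83, SE 0.045). Nptx2, the activity-induced member, had means of 7.97 ± 1.19 and 49.3 ± 5.24 CPM (log2 fold change 2.63, SE 0.083). Nptx1 gained on Nptxr: it stood at 13.7% ± 0.406 of the Nptxr level at E18.5 and at 38.7% ± 3.06 at 7 weeks, on the CPM scale.

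Both the ligand gene and its receptor gene rose. Bdnf was at 3.75 ± 0.609 CPM in control at E18.5 and at 38.4 ± 2.81 CPM at 7 weeks (SD, n = 6 and 5; log2 fold change 3.36, SE 0.084, adjusted p 2.77e-21 in edgeR's quasi-likelihood test). Ntrk2 was at 393 ± 27.0 and 872 ± 21.3 CPM (log2 fold change 1.16, SE 0.042, adjusted p 4.42e-18 in the same test). The 95% intervals of these log2 fold changes, 3.18 to 3.53 and 1.07 to 1.24, do not meet, though the difference between the genes was not tested itself.

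Of the granule genes, the convertase gene Pcsk1 was higher by 3.54 (SE 0.074) and Vgf by 3.29 (SE 0.050) on the log2 scale between ages in control. Pcsk1 went from 5.81 ± 0.725 to 67.3 ± 6.06 CPM and Vgf from 26.6 ± 2.34 to 261 ± 8.19 CPM (SD, n = 6 and 5). Scg2, the other granin, was already at 87.8 ± 6.22 CPM at E18.5 and reached 192 ± 8.15 CPM (log2 fold change 1.14, SE 0.045). Inhba fell by 1.14 on the log2 scale (SE 0.083), with values of 27.6 to 38.2 CPM (median 30.5) at E18.5 and of 12.03, 16.15, 16.15, 14.6 and 12.1 CPM at 7 weeks. The Inhba groups did not overlap, nor did those of the other 8 genes, where 80.2% of all genes tested had no overlap between ages in either direction.

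Cell type markers moved with age in the same libraries. The summed level of 8 astrocyte markers was 517 to 597 CPM at E18.5 and 5929 to 6826 CPM at 7 weeks, with 8 of 8 higher. That of 8 oligodendrocyte markers was 150 to 166 and 6728 to 7924 CPM, with 7 of 8 higher, and that of 8 neural progenitor markers 333 to 365 and 57.7 to 67.2 CPM, with 8 of 8 lower. Among neuronal lists, striatal markers summed to 905 to 1017 and 1401 to 1703 CPM, with 12 of 16 higher and 3 lower. Cortical excitatory markers summed to 2032 to 2266 and 2748 to 2903 CPM, although 8 of 12 were lower and 2 higher. Interneuron markers overlapped in their sums, at 791 to 925 and 839 to 872 CPM, with 4 of 10 higher and 6 lower. Microglia markers were at 57.6 to 65.8 and 384 to 422 CPM, with 8 of 8 higher. Endothelial markers were at 153 to 177 and 209 to 235 CPM, with 3 of 8 higher and 2 lower. Astrocytes are known to express Ntrk2, mainly its truncated form. The part of these markers in the age differences of the 9 genes was not tested, and in bulk RNA fewer cells of a type and less RNA per cell cannot be told apart.

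**Figure D1:**
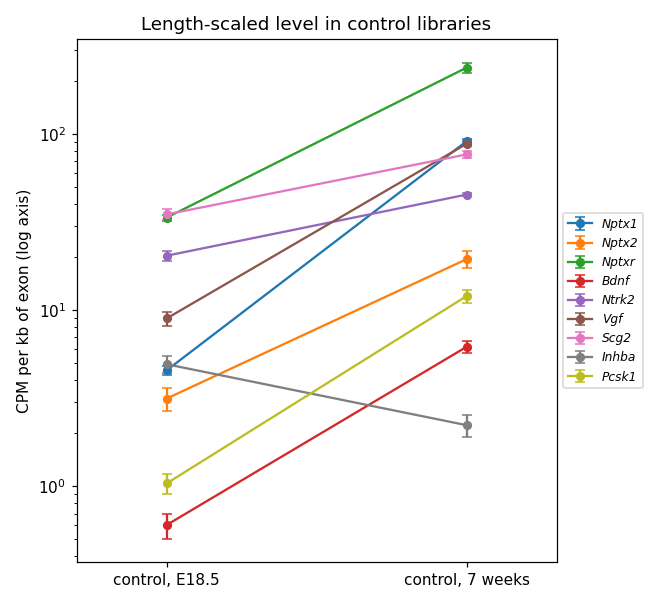
Mean level of each gene in control libraries at E18.5 (n = 6) and 7 weeks (n = 5), in CPM per kb of joined exon on a log axis; bars are SD. Inhba is the only line of the 9 that descends, and Nptx1 starts below Inhba, Vgf, Ntrk2 and Scg2 and ends above all 4.

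Scaled per kb of joined exon, the order of the 9 genes was rearranged between ages. At E18.5 in control, Scg2 (34.9 ± 2.47 CPM per kb) and Nptxr (33.4 ± 1.35 CPM per kb) led and their libraries overlapped. Ntrk2, Vgf, Inhba, Nptx1, Nptx2, Pcsk1 and Bdnf followed in that order, and of these neighbours only Inhba and Nptx1 overlapped. At 7 weeks Nptxr led at 238 ± 16.02 CPM per kb, ahead of Nptx1 at 90.7 ± 2.16 and Vgf at 87.8 ± 2.76 CPM per kb, which overlapped each other. Scg2, Ntrk2, Nptx2, Pcsk1, Bdnf and Inhba followed without overlap between neighbours, Inhba last at 2.22 ± 0.322 CPM per kb. Joined exons of every annotated transcript can exceed the transcribed length, and the per-kb level is then too low; Ntrk2 had the longest joined exons.

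At E18.5 the comparison of TETA with control asks whether these genes differed with treatment before birth. Of the 9 genes, 0 passed the same threshold over 13794 genes (edgeR quasi-likelihood, BH), as did 0.0% of all genes tested. None of the 9 had groups without overlap, where 0.319% of all genes did. By an unadjusted p under 0.05 there was 1 of the 9, Vgf, beside 4.78% of all genes. DESeq2 also called 0 of the 9. The median log2 fold change of the 9 genes was -0.0020 and that of all genes -0.0027.

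Vgf, the granin precursor, had the largest difference of the 9 at E18.5. Its level was 23.6 to 29.6 CPM (median 26.6) in control and 28.8 to 32.5 CPM (median 29.9) in TETA. All 6 TETA libraries lay above the control median, but the 2 groups overlapped through the highest control library. The log2 fold change was 0.18 (SE 0.058, 95% interval 0.06 to 0.30), and the p was 0.0062, or 0.801 once adjusted over all genes (edgeR quasi-likelihood, BH). Leaving out each library in turn kept it between 0.14 and 0.21.

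The pentraxins at E18.5 had positive estimates that did not pass. Nptx1 was at 21.6 to 25.1 CPM (median 24.3) in control and 24.2 to 26.6 CPM (median 25.4) in TETA (log2 fold change 0.09, SE 0.051, 95% interval -0.02 to 0.19). Nptxr was at 163 to 181 CPM (median 174) in control and 172 to 196 CPM (median 179) in TETA (log2 fold change 0.06, SE 0.040, interval -0.02 to 0.14). Nptx2 was at 6.62 to 9.94 and 7.05 to 9.22 CPM (log2 fold change 0.03, SE 0.097, interval -0.17 to 0.23). Each adjusted p was 0.996 in edgeR's quasi-likelihood test, and the groups overlapped for all 3 genes.

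The remaining 5 genes at E18.5 had log2 fold changes between -0.02 and 0, smaller than their SEs. The ligand Bdnf was at 2.74 to 4.56 CPM (median 3.72) in control and 3.25 to 4.36 CPM (median 3.54) in TETA, with a 95% interval of the log2 fold change from -0.25 to 0.25. Its receptor gene Ntrk2 had an interval from -0.13 to 0.08. For Scg2 the interval was -0.11 to 0.07, for Inhba -0.16 to 0.15 and for Pcsk1 -0.24 to 0.21. Changes within these intervals are not excluded by a p that misses the threshold. At E18.5 the summed level of 8 endothelial markers was 153 to 177 CPM in control and 179 to 193 CPM in TETA, without overlap. Of the 7 endothelial markers tested 0 passed the threshold, and 5 estimates were higher and 2 lower in TETA. Summed levels of the other marker lists overlapped. The part of the endothelial markers in the Vgf value was not tested.

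At 7 weeks the levels are described without a test, since Nptx1 was chosen in this contrast. Nptx1 was at 466, 459, 484, 472 and 485 CPM in control and at 561, 583, 573 and 568 CPM in TETA. The lowest TETA library lay above the highest control library, and the log2 fold change was 0.28 (SE 0.028), a level 21.6% higher. Relative to Nptxr in the same library it stood at 36.3% to 43.9% in control and at 48.3% to 50.2% in TETA. For the other pentraxins the groups overlapped. Nptx2 was at 45.7, 56.2, 48.1, 43.5 and 53.1 CPM in control and 60.6, 48.2, 48.7 and 56.8 CPM in TETA, with a log2 fold change of 0.13 (SE 0.072). Nptxr was at 1283, 1216, 1102, 1217 and 1319 CPM in control and 1122, 1162, 1185 and 1145 CPM in TETA (log2 fold change -0.08, SE 0.039). All 4 TETA libraries of Nptxr lay below the control median, and the groups overlapped through control replicate 3.

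**Figure D2:**
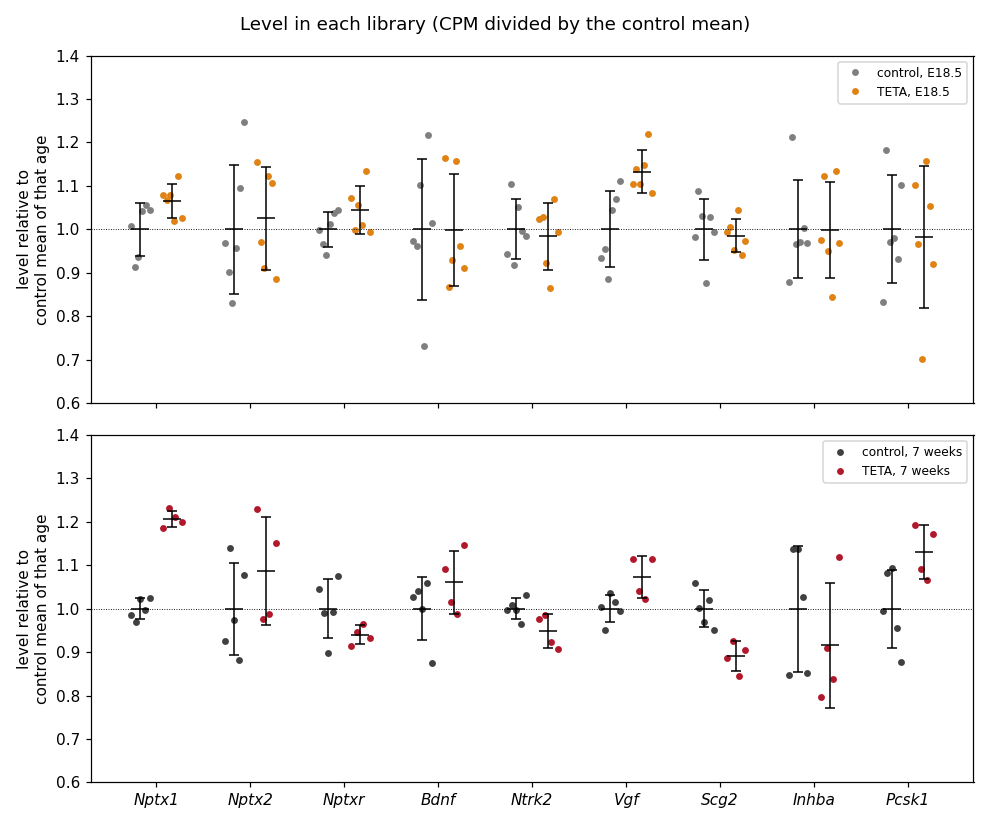
Level of each gene in each library, as CPM divided by the mean of the control libraries of the same age, at E18.5 (upper panel) and 7 weeks (lower panel); points are libraries, horizontal marks the mean and bars the SD. At 7 weeks the TETA points of Nptx1 lie above all control points and those of Scg2 below all control points, and the other groups overlap.

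The granule genes did not share a direction at 7 weeks. Scg2 was at 204, 193, 186, 196 and 183 CPM in control and 170, 178, 162 and 174 CPM in TETA (log2 fold change -0.16, SE 0.037) with every TETA library below every control library. Vgf, the other granin, was at 262, 248, 270, 265 and 259 CPM in control and 291, 272, 266.5 and 291 CPM in TETA (log2 fold change 0.11, SE 0.034). Pcsk1 was at 66.8, 72.7, 73.5, 64.2 and 59.0 CPM in control and 80.2, 73.4, 71.7 and 78.8 CPM in TETA (log2 fold change 0.19, SE 0.055). For Vgf and Pcsk1 all 4 TETA libraries lay above the control median, and the highest control library lay above the lowest TETA library.

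The ligand gene Bdnf at 7 weeks was at 39.5, 40.0, 38.4, 40.7 and 33.6 CPM in control and 42.0, 39.0, 37.9 and 44.1 CPM in TETA (log2 fold change 0.10, SE 0.057). Ntrk2 was at 869, 880, 870.3, 841 and 900 CPM in control and 851, 860.3, 805 and 791 CPM in TETA (log2 fold change -0.07, SE 0.031). Inhba, the activin subunit, was at 12.03 to 16.2 CPM in control and 11.3 to 15.9 CPM in TETA (log2 fold change -0.12, SE 0.11). Groups overlapped for all 3 of these genes. Of the 9 genes, 1 had no overlap with TETA higher and 1 with TETA lower, where 5.41% and 5.84% of all genes tested did, and since this contrast chose the group nothing is read from the counts.

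**Figure D3:**
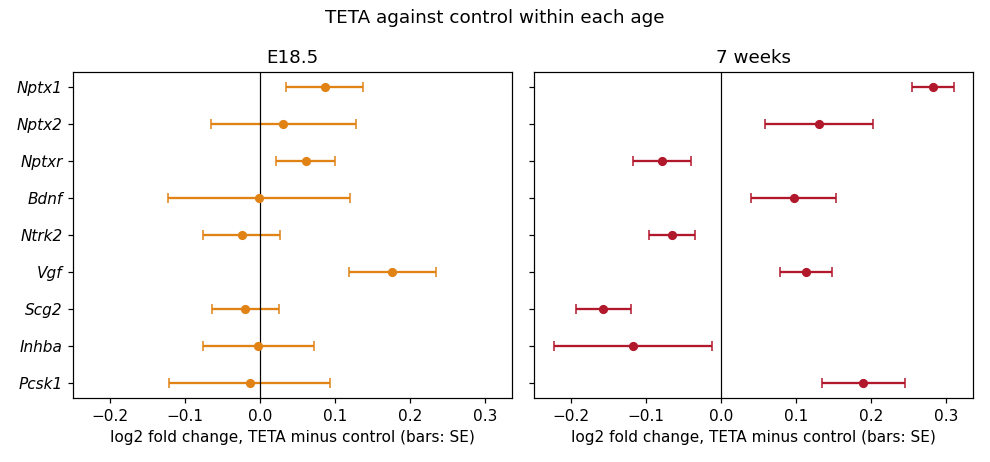
Log2 fold change of TETA against control for the 9 genes at E18.5 (left) and 7 weeks (right); points are estimates of edgeR's quasi-likelihood fit and bars are SEs. At E18.5 the estimates span -0.02 to 0.18, and at 7 weeks -0.16 to 0.28.

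The libraries compared at 7 weeks also differed in striatal markers. All 16 genes of a list of striatal projection neuron markers passed the adjusted threshold with lower levels in TETA in edgeR's quasi-likelihood test, with a median log2 fold change of -1.21. Their summed level was 1401 to 1703 CPM in control and 702 to 861 CPM in TETA, and none of the 16 was at 0 in every library. For example, the D2 dopamine receptor gene Drd2 had group means of 20.6 and 4.08 CPM. Summed markers of astrocytes were 5929 to 6826 CPM in control and 5387 to 5784 CPM in TETA, and those of interneurons 839 to 872 and 767 to 803 CPM, both without overlap, with 3 of 8 and 2 of 10 genes past the threshold as lower in TETA. Of the 12 markers of cortical excitatory neurons 3 were also past it as lower. Their summed levels overlapped, at 2748 to 2903 and 2686 to 2829 CPM, but were mostly the vesicular glutamate transporter gene Slc17a7, with means of 1763 and 1748 CPM. The part of these markers in the values of the 9 genes was not tested.

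The striatal score of each library did not overlap between the groups, so treatment and striatal content cannot be told apart, and a fit with the score as a covariate gives values with wide errors from which nothing is read. In it the log2 fold change of Nptx1 was 0.25 with an SE of 0.11, where the SE without the score was 0.028. Those of Scg2 and Ntrk2 changed sign, to 0.093 (SE 0.13) and 0.019 (SE 0.12). Bdnf was at 0.42 (SE 0.21), Pcsk1 at 0.52 (SE 0.20), Vgf at 0.30 (SE 0.13) and Nptxr at -0.33 (SE 0.14), each farther from 0 than without the score. In the plot of Nptx1 against striatal markers the control and TETA libraries form separate groups on both axes.

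**Figure D4:**
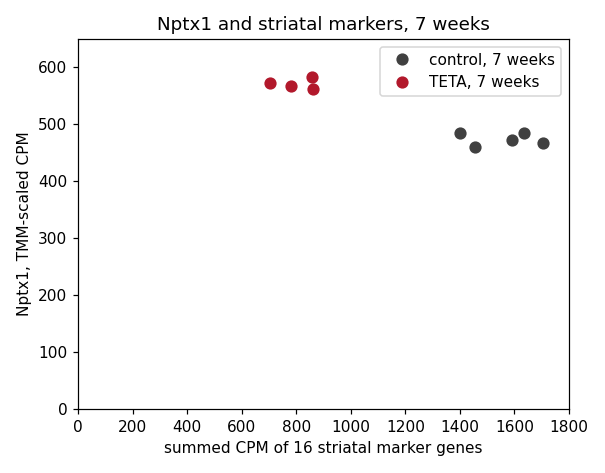
Nptx1 level (CPM, vertical axis from 0) against the summed CPM of 16 striatal marker genes in the 5 control and 4 TETA libraries at 7 weeks; each point is a library. Control libraries sit at 1401 to 1703 CPM of striatal markers and TETA libraries at 702 to 861 CPM.

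Genes that act with the 9 were counted from 6 lists. The lists were chosen with earlier results of these data known, so their shares below are descriptions and no support for a list. At E18.5, 0 of 120 list genes tested passed in edgeR's quasi-likelihood test (DESeq2 called 0 of the list genes). An unadjusted p under 0.05 was found for 10 of the 120, beside 4.78% of all genes tested, and 7 of these 10 were early activity genes. At 7 weeks 27 of 121 passed, 14 higher and 13 lower in TETA, beside 9.96% of all genes tested (5.67% higher and 4.28% lower). With the striatal score as a covariate 0 of the list genes passed, as did 0 of all 14240 genes (688 had an unadjusted p under 0.05).

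AMPA receptor and pentraxin partner genes at 7 weeks had 0 higher and 2 lower genes among 22 tested, with a median log2 fold change of 0.02. This share, 9.09%, was near the 9.96% of all genes called, so the count is no result about the list. Dlg4, which encodes the postsynaptic scaffold PSD-95, fell from 1114 ± 36.1 CPM in control to 980 ± 22.2 CPM in TETA (SD, n = 5 and 4), which gave a log2 difference of -0.17 (SE 0.028, adjusted p 4.04e-04 in edgeR's quasi-likelihood test). Cacng4, an auxiliary AMPA receptor subunit gene, fell from 38.2 ± 2.84 to 29.2 ± 0.316 CPM (log2 fold change -0.38, SE 0.054, adjusted p 1.53e-04). The AMPA receptor subunit genes Gria1 to Gria4 were not among the genes that passed.

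Of 23 neurotrophin and TrkB signalling genes tested at 7 weeks, 3 were higher and 2 lower, or 21.7% of the list beside 9.96% of all genes (5.67% higher and 4.28% lower). The higher genes were Furin, a protease that cuts the BDNF precursor (log2 fold change 0.23, SE 0.051), Ntrk3, which encodes the NT-3 receptor TrkC (0.13, SE 0.037), and Cbl, a ubiquitin ligase gene (0.13, SE 0.041). The lower genes were the sortilin family receptors Sorcs2 (-0.23, SE 0.041) and Sorcs1 (-0.12, SE 0.037). Their adjusted p-values ran from 8.65e-04 for Sorcs2 to 0.0462 for Sorcs1 in edgeR's quasi-likelihood test.

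Of 23 dense core granule and peptide processing genes, 1 was higher and 6 lower in TETA at 7 weeks, or 30.4% of the list beside 9.96% of all genes (5.67% higher and 4.28% lower). Cpe, the carboxypeptidase that acts after the convertases, fell from 2249 ± 134 to 1952 ± 102 CPM (SD, n = 5 and 4; log2 fold change -0.19, SE 0.039, adjusted p 0.00302 in edgeR's quasi-likelihood test). The neuropeptide gene Npy fell from 109 ± 5.44 to 95.2 ± 6.23 CPM, with a log2 fold change of -0.19, and Cadps2, a granule priming factor, had one of -0.18. The higher gene was Snap25, which encodes a membrane fusion protein, with a log2 fold change of 0.08 (SE 0.025). Pam, which encodes the copper-dependent enzyme that amidates peptides, was named for its need of copper after its values were seen. It was at 252 ± 11.3 and 256 ± 5.42 CPM (log2 fold change 0.04, SE 0.035, adjusted p 0.581 in the same test).

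Of 16 activin pathway genes at 7 weeks, 1 was higher and 0 lower, a share of 6.25% beside 9.96% of all genes. Inha, the inhibin alpha subunit whose product competes with activin, rose from 19.3 ± 1.25 to 22.5 ± 1.84 CPM (SD, n = 5 and 4; log2 fold change 0.24, SE 0.067, adjusted p 0.0270 in edgeR's quasi-likelihood test). Among 20 other late activity genes 4 were higher and 2 lower, beside 5.67% and 4.28% of all genes. Tiparp, Gadd45b and Ptgs2 had log2 fold changes of 0.48, 0.30 and 0.26, and the G protein regulator gene Rgs4 and the neuropeptide gene Cort had -0.22 and -0.45. Early activity genes had 5 higher and 1 lower among 17, a share of 35.3%, with a median log2 fold change of 0.30. Egr3, Fosb and Fosl2, all transcription factor genes, were higher by 0.50, 0.58 and 0.45, and Nr4a2 was lower, at -0.49.

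At E18.5, 7 of the 17 early activity genes had an unadjusted p under 0.05, beside 4.78% of all genes tested and with 0 past the adjusted threshold, and with a list median of 0.14 on the log2 scale. Egr1, a transcription factor gene chosen after seeing its values, had control and TETA means of 8.56 ± 1.78 and 11.2 ± 1.86 CPM (SD, n = 6 and 6; log2 difference 0.40, SE 0.12; adjusted p 0.654, edgeR quasi-likelihood). The other late activity genes had 0 of 19 under the same unadjusted p and a list median of 0.04.

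Between ages in control, 74 of 123 list genes were higher at 7 weeks and 41 lower past the adjusted threshold, beside 89.5% of all genes. By direction, 44.0% of all genes were higher and 45.5% lower. Of the 23 granule genes 21 were higher and 2 lower, with a median log2 fold change of 1.58. Cck, a cortical neuropeptide gene, Snap25 and the convertase gene Pcsk2 were higher by 3.95, 3.83 and 3.39 on the log2 scale. Syt4, a synaptotagmin gene of granules, and the neuropeptide gene Nmb were at -1.19 and -0.78. Vgf, Scg2 and Pcsk1 thus shared the direction of most of this list.

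Of 24 neurotrophin and TrkB signalling genes 10 were higher and 13 lower between ages, near the background of 44.0% and 45.5% of all genes. Sort1, which encodes a sorting receptor for BDNF, Sorcs2 and the adaptor gene Shc3 were higher by 1.95, 1.39 and 0.93 on the log2 scale. Ntf3, which encodes the neurotrophin NT-3, was at -3.99, opposite in direction to Bdnf. Kidins220, which encodes a Trk scaffold, and the phospholipase gene Plcg1 were at -1.18 and -1.04.

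Of the 16 activin genes 6 were higher and 10 lower between ages, beside 44.0% and 45.5% of all genes. The receptor gene Acvr2a was at -2.12 and the signal transducers Smad2 and Smad4 at -1.26 and -1.14, lower as Inhba was, while Tgfbr3, Acvr1c and Smad3 were at 2.68, 2.34 and 1.46. Of the 23 pentraxin partners and AMPA receptor genes 12 were higher and 8 lower, beside 44.0% and 45.5% of all genes. C1ql3, Cacng3 and the receptor subunit gene Gria3 were at 3.37, 2.77 and 2.14, and Cacng4, Shisa6 and Grip2 at -2.94, -1.98 and -1.26.

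Other late activity genes were higher for 13 and lower for 5 of 20 between ages, beside 44.0% higher and 45.5% lower over all genes. Rasgrp1, Nrn1 and Rgs4 were at 4.64, 3.30 and 3.05 on the log2 scale, and Dusp4, Pim1 and Tiparp at -2.64, -1.91 and -0.98. Early activity genes were higher for 12 and lower for 3 of 17, beside the same shares of all genes. Egr1, Egr4 and Egr3 were at 5.39, 4.97 and 3.54, and Nr4a2, Fosl2 and Nr4a3 at -1.77, -1.36 and -1.17.

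Within groups the 9 genes varied only loosely together. After each group's mean was removed, the 36 pairwise Pearson correlations of log2 CPM over 21 libraries ran from -0.58 to 0.65 with a median of 0.16, and 13 were below 0. The libraries share scaling and depth effects, so these are descriptions. The highest were Bdnf with Scg2 (0.65), Nptx1 with Vgf (0.65), Nptx2 with Vgf (0.61) and Nptx1 with Nptxr (0.55). The lowest was Nptx1 with Scg2 (-0.58), the pair that also lay on opposite sides at 7 weeks. BDNF and its receptor gene had -0.43.

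**Figure D5:**
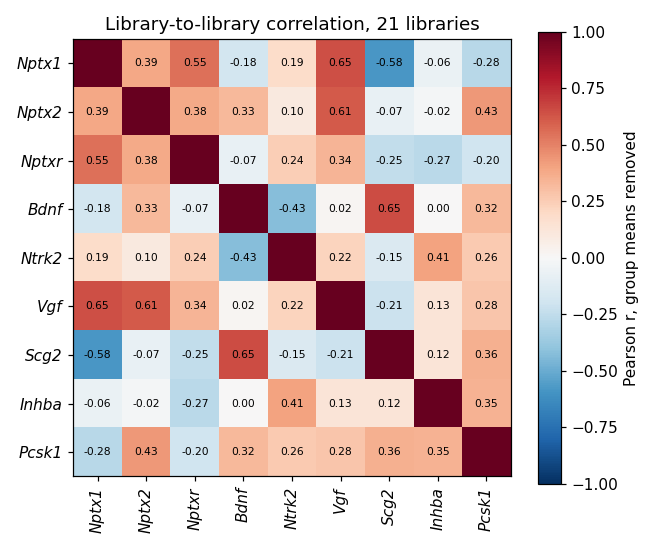
Pearson correlation of log2 CPM between each pair of the 9 genes over 21 libraries with group means removed; the colour scale runs from -1 to 1 and each cell prints its value. Nptx1, Nptx2, Nptxr and Vgf correlate positively with each other, and Scg2 correlates negatively with Nptx1.

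The genes most like each member were ranked by the same measure over 13433 genes, 21 libraries each, as a description. For Nptx1 they were Qpctl (0.83), Srebf2 (0.81), Sympk (0.81), Rnf40 (0.81) and Unc5a (0.80). Srebf2 followed Nptx1 at E18.5 (0.91 over 12 libraries) and less at 7 weeks (0.23 over 9). For Nptx2 they were Btbd17 (0.79), Pfn1 (0.77) and Olfm1 (0.76), and for Nptxr Sdc3 (0.86), Agap2 (0.83) and Cacng4 (0.81), the auxiliary AMPA receptor subunit gene named above. For Bdnf they were Rhoq (0.80), Tpgs2 (0.78) and Hey1 (0.74), and for Ntrk2 Shc3 (0.85), an adaptor of Trk receptors, Fras1 (0.85) and Utrn (0.83). The match of Ntrk2 with Shc3 was 0.93 at E18.5 and 0.11 at 7 weeks, and that with Fras1 was 0.95 and 0.15. For Vgf they were Ppard (0.77), Dnm1 (0.76) and Snrk (0.76), and for Scg2 Gpr83 (0.81), Vstm2a (0.80) and Fermt2 (0.78). The match of Vgf with Dnm1 was 0.90 at E18.5 and -0.13 at 7 weeks. For Inhba they were Plcb1 (0.87), Hecw1 (0.87) and Dclk1 (0.86), and for Pcsk1 Grpr (0.87), Cntn1 (0.83) and Zdbf2 (0.83).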

How the data were processed

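The authors deposited 2 tables of raw counts per gene symbol, 1 per age, per the file headers. The submitters' processing notes list STAR 2.7.1a, featureCounts 2.0.1 and mm10; the libraries were TruSeq stranded mRNA, per the labels' protocols. From these counts, E18.5 rows at 0 in control replicate 1-1 were divided by 11, each contrast was fitted alone with edgeR 4.0.16 (filterByExpr with a minimum count of 10, TMM, quasi-likelihood test, BH adjustment over all genes, threshold 0.05), and SE is the log2 fold change over the square root of F. The age contrast used the control columns of both tables. Log2 CPM had a prior count of 2. DESeq2 1.42.0 was an alternative. Other software was R 4.3.3, Python 3.11.15, numpy 2.4.6 and pandas 2.3.3.

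The 9 genes and all lists were chosen with earlier results of these data known. Genes named from a list were the 3 with the smallest adjusted p in each direction; the genes most like a member were the 5 (Nptx1) or 3 with the highest correlation. Simulated counts with 200 genes changed by 0.25 on the log2 scale were recovered at 57.0% (E18.5, 13794 genes), 53.0% (7 weeks, 14240) and 57.5% (ages, 14375). The lowest chi-square per gene between replicate libraries was 2.30, so none repeated another within counting noise. Other marker lists (oligodendrocytes, microglia, endothelial cells, choroid plexus, blood, progenitors) had 0 to 2 genes past the threshold between treatments at either age.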

Additional observations from a re-analysis of the deposited data

Results flagged for a closer look

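No library of any group lay apart for any of the 9 genes: of 36 groups of 4 to 6 libraries, 0 had an extreme library whose gap to its neighbour exceeded the 95% critical value of Dixon's ratio, where about 1 in 20 groups (1.80) would by chance. The difference between ages in the TETA effect was not tested, since the 7-week contrast chose the genes.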

How the results depend on the processing

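The age contrast kept its direction and its calls for all 9 genes under each alternative run (no filter, a minimum mean of 50 counts, no TMM factors, DESeq2, TETA libraries only, all libraries with a treatment term, and each control library left out). At E18.5, 0 of the 9 and 0 of the list genes passed under any alternative, counts as deposited included. The estimates nearest 0 changed sign there. Bdnf was at 0.011 with the replicate block, 0.0012 with a replicate block of the first part of the number and 0.017 with the striatal score, and under that score Inhba was at 0.0082 and Pcsk1 at 0.055. Leaving out each library moved Bdnf from -0.086 to 0.069, Inhba from -0.040 to 0.057, Pcsk1 from -0.075 to 0.059, Nptx2 from -0.024 to 0.11, Ntrk2 from -0.050 to 0.0087 and Scg2 from -0.057 to 0.0068. Nptxr and Nptx1 kept their sign, at 0.036 to 0.075 and 0.066 to 0.10, and Nptxr was lowest without TETA 3-1.

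At 7 weeks Nptx1 ran from 0.25 (striatal score) to 0.30 (no TMM factors), with 0.27 to 0.29 when a library was left out and 0.29 with the replicate block. Smaller 7-week estimates kept their sign but depended on 1 library. Inhba (-0.12) was at -0.063 and -0.071 without controls 2 and 3, -0.054, -0.078 and -0.23 without TETA 1, 3 and 4. Nptx2 (0.13) was at 0.063 without TETA 1, Bdnf (0.096) at 0.051 without control 5 and 0.060 without TETA 4, Nptxr (-0.079) at -0.051 without control 5 and Ntrk2 (-0.066) at -0.042 without TETA 4. With the replicate block Bdnf was at 0.050 and Nptxr at -0.049. The striatal score moved Nptx2 to 0.068, Nptxr to -0.33, Bdnf to 0.42, Vgf to 0.30 and Pcsk1 to 0.52, turned Ntrk2 to 0.019 and Scg2 to 0.093, and took the list genes past the threshold from 27 to 0; leaving out each library gave 19 to 24. The deviations of control and TETA libraries with the same full number correlated at -0.275 to 0.284 in embryos and -0.0692 to -0.0295 in adults. No consistent pairing by full number was therefore seen. Libraries that share only the first part of a number were not compared in this way. Over all genes at 7 weeks the replicate block gave 1072 calls against 1418. Without TMM factors 67.6% of the 7-week calls were higher against 57.0%. Over all genes at E18.5 DESeq2 called 10 against 0, and leaving out control 3-2 or TETA 1-2 gave 3 and 7; at 7 weeks 927 genes passed without TETA replicate 3. The cause was not tested.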

Other observations

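The balance between the granins was examined after the values had been seen. Vgf stood at 30.5% ± 4.06 of the Scg2 level in control and 34.9% ± 2.25 in TETA at E18.5 (SD, n = 6 and 6), with overlapping libraries (26.1% to 36.1% and 33.3% to 39.3%). At 7 weeks it stood at 136% ± 7.42 in control and 164% ± 7.87 in TETA (n = 5 and 4), at 129% to 145% and 153% to 171%, without overlap. Vgf was thus below Scg2 in every embryonic library and above it in every 7-week library, on the CPM scale. At 7 weeks 11.2% of all single genes tested had groups without overlap, and no such share was computed for ratios. The 7-week contrast chose the group and the Scg2 estimate there changed sign with the striatal score, so nothing is read from the treatment difference. Bdnf stood at 0.962% ± 0.191 of the Ntrk2 level in control at E18.5 and at 4.41% ± 0.410 at 7 weeks.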
